A study of Drosophila melanogaster with 21 samples.

Results

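Germline, maternal and piRNA genes were examined in RNA-sequencing libraries made from heads of adult flies with neuronal RNAi knockdown of homologs of 3q29 genes. The members are 38 *Drosophila* genes chosen by symbol for their roles in the piRNA pathway, in germ plasm, in patterning of the oocyte and in maternally loaded RNA, and 37 of the 38 had a row among the 17559 genes counted. They were chosen with earlier results of these data known. The helicase gene *vas* was not analysed here. F1 females carried *Elav-GAL4*, which drives expression in all neurons, and were reared at 25°C. The 5 knockdown groups carried VDRC RNAi lines against *dlg1* (line 41136, GD background), *Fsn* (line 26577, GD background), *Cbp20* (line 107112, KK background), or the pairs *Cbp20/dlg1* and *Cbp20/Fsn* (both lines), and the references were Control GD and Control KK, the VDRC background strains crossed with the same driver. Each of the 7 groups had 3 replicates made from pooled heads of females (collected in groups of 40 to 50 flies), and each RNAi group rests on 1 line per targeted gene. Individual knockdowns were compared with the control of their own background, and both pairs were compared with Control KK and with *Cbp20* knockdown alone. Each pair carries a KK line and a GD line, so both references match only part of its background. In these comparisons strain and knockdown cannot be told apart.

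In the fly ovary, PIWI proteins bound to piRNAs cut or silence transposon transcripts, helicases and Tudor-domain proteins of the nuage organise the making of piRNAs, and the Rhino complex marks the genomic clusters they come from. The oocyte is loaded with RNAs such as *osk*, *nos* and *bcd*, which are held silent and placed at one end of the cell. A kinase complex formed by the products of *png*, *plu* and *gnu* releases the translation of maternal RNAs at egg activation. Most of these genes are known for their work in germ cells and early embryos, while *stau*, *orb*, *me31B* and *smg* also act in neurons.

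RNA came from whole heads, which were separated from the bodies by freezing and vortexing, while the RNAi acted in neurons. The libraries held between 17712938 and 28759171 gene counts (median 22289840), so that 3 counts equal 0.104 to 0.169 CPM (read counts scaled to library size, with TMM normalisation). Lower values rest on fewer than 3 counts, and this floor covers counting error only. *Cbp20* averaged 36.5% of its Control KK level in *Cbp20* libraries, 40.8% in *Cbp20/dlg1* libraries and 42.6% in *Cbp20/Fsn* libraries. *Fsn* averaged 67.8% of Control GD in *Fsn* libraries and 69.4% of Control KK in *Cbp20/Fsn* libraries. *dlg1* averaged 88.0% of Control GD in *dlg1* libraries and 78.6% of Control KK in *Cbp20/dlg1* libraries. The knockdown and reference ranges did not overlap in any of these 7 comparisons. Genes of photoreceptors, neurons, glia and female head fat body were present in all 21 libraries. Nothing in the labels says whether the replicates came from separate crosses, so the tests measure the spread between these samples.

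Libraries of the *Cbp20/Fsn* group stood apart from each other. Of the 37 genes, 28 had their highest level of all 21 libraries in *Cbp20/Fsn* replicate 3. The summed level of the 17 members that were near zero in controls (a mean under 1 CPM over the 6 control libraries) was 30.6 CPM in *Cbp20/Fsn* replicate 1, 3.14 CPM in replicate 2 and 80.1 CPM in replicate 3, against 6.59, 3.33 and 4.48 CPM in Control KK. Replicates 1 and 3 were therefore high and replicate 2 lay below all 3 Control KK libraries. Outside that group the sum was highest in Control GD replicate 3 at 15.6 CPM and in *Cbp20* replicate 2 at 13.3 CPM, and the lowest was 2.64 CPM in *Fsn* replicate 1. The difference was present in each sequencing run of a library: the same sum, in CPM of the run, was 28.1 to 35 over the 3 runs of replicate 1, 2.87 to 3.27 over those of replicate 2 and 79.9 to 85.7 over those of replicate 3. Over the 15 members with at least 30 counts in replicate 1 that were not expressed at 1 CPM or more in every library, the level in replicate 3 was 1.63 to 6.25 times that in replicate 1, with a median of 2.50. In bulk RNA, fewer cells of a type and less RNA per cell cannot be told apart, and likewise for more of either.

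**Figure D1:**
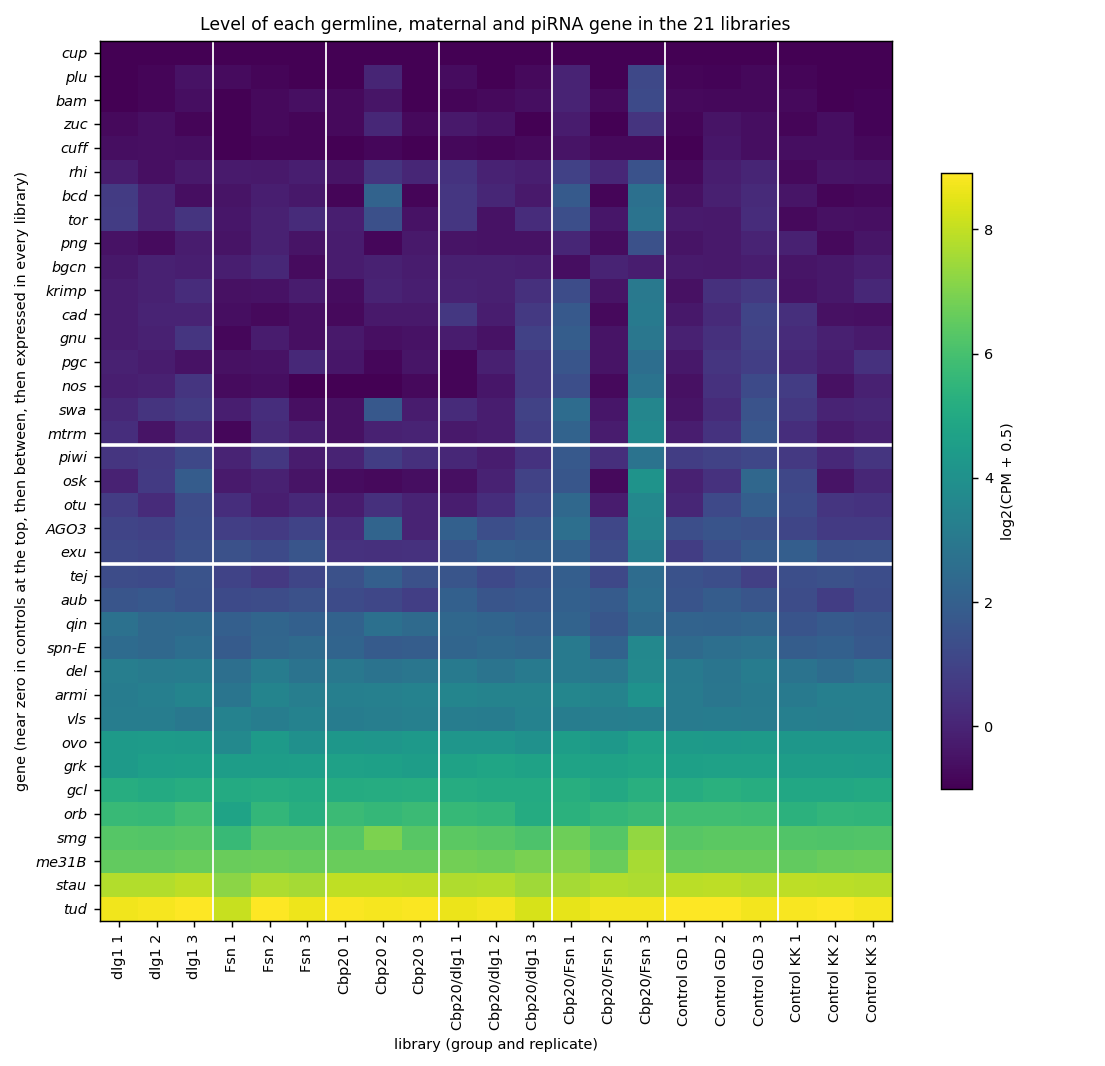
Level of each of the 37 genes (rows, ordered by level class and by mean level in the controls) in the 21 libraries (columns, by group and replicate), as log2(CPM + 0.5) in colour. White lines separate the groups and the 3 level classes, and the column of *Cbp20/Fsn* replicate 3 is brighter than its neighbours for most of the upper 22 rows.

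The 37 members fell into 3 classes by level. In addition to the 17 near zero in controls, 15 were expressed at 1 CPM or more in every library and 5 lay between (*piwi*, *AGO3*, *exu*, *osk* and *otu*). Among the 15, levels per kilobase of merged exon, averaged over the 6 control libraries, ran from 0.548 CPM per kb for *qin* to 53.2 CPM per kb for *me31B*, an RNA helicase that represses translation. *tud*, a Tudor-domain scaffold of germ plasm, stood at 51.6 CPM per kb and *stau*, a double-stranded RNA-binding protein that localises RNAs, at 44.1 CPM per kb. *smg*, a repressor that clears maternal RNAs, *gcl*, needed to form germ cells, and *grk*, the TGF-alpha-like ligand of the oocyte, stood at 13.2, 13.4 and 13.7 CPM per kb, which are close to each other. The Argonautes were far lower, with *aub* at 0.740, *AGO3* at 0.557 and *piwi* at 0.377 CPM per kb. *vls* (a cofactor for arginine methylation of Tudor partners) at 6.63, *orb* (a regulator of translation in the oocyte) at 5.30 and *ovo* (a transcription factor of the female germline) at 2.63 CPM per kb lay between those sets. The steadiest genes over the 21 libraries were *gcl*, *grk* and *vls*, whose highest library was 1.30, 1.38 and 1.38 times the lowest.

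Of the 17 members near zero in controls, *cup*, which encodes an eIF4E-binding repressor, was listed at 0 in all 21 libraries. Its gene model overlaps that of *CG34310* on the same strand in the BDGP6.54 annotation, so its counts are uncertain. The differentiation gene *bam* ranged from 0 to 1.85 CPM, its partner *bgcn* from 0.111 to 0.582 CPM, the piRNA phasing nuclease gene *zuc* from 0 to 0.903 CPM and *cuff*, a partner of *rhi*, from 0 to 0.261 CPM. The highest level of *bam* and of *zuc* was again in *Cbp20/Fsn* replicate 3. *cuff*, *zuc*, *bam* and *cup* were below the count filter, which left 33 members among the 10558 genes tested. Of these, *bgcn*, *png* and *plu* passed the filter only with the *Cbp20/Fsn* libraries included, so their counts there decided whether they were tested. Gene models of 20 of the 37 members overlap a protein-coding gene, 6 of them on the same strand. Since the strand setting of the counting is not stated, reads of opposite-strand neighbours could also enter, as for *aub* (*TTLL4A*), *piwi* (*SCAR*), *spn-E* (*Pbp45*), *pgc* (*T3dh*), *otu* (*CG33181*), *exu* (*galla-1*), *grk* (*Akap200*) and *nos* (*Nsun5* and *CG11779*). In that annotation the PIWI genes lie on these chromosome arms and positions, *aub* at 2L, 10997819 to 11001476, *piwi* at 2L, 10982205 to 10987420 and *AGO3* at 3L, 23554593 to 23689640.

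In the comparison of *Cbp20/Fsn* with Control KK, 13 of the 37 members were higher and 0 were lower at a log2 fold change over 1 and an FDR under 0.05 (Benjamini-Hochberg, edgeR quasi-likelihood test). Of all 10558 genes, 2.12% were higher and 0.881% lower by the same rule (3% in either direction). The median log2 fold change over the 33 members tested was 1.27, beside 0.0025 over all genes tested. Since members were chosen with earlier results of these data known, these shares and medians are a description. A further 5 members had an FDR under 0.05 with a fold change below the threshold, for a total of 18 of 33 beside 17.1% of all genes. Of the 13, 12 passed the count filter without the *Cbp20/Fsn* libraries, and *plu* did not. The 13 comprise the 3 PIWI genes, 2 nuage genes, *rhi*, 4 patterning genes, 2 genes of egg activation and the meiotic gene *mtrm*. All 13 were above every Control KK library in replicates 1 and 3, but only 5 (*aub*, *AGO3*, *spn-E*, *rhi* and *tor*) in replicate 2. Without *Cbp20/Fsn* replicate 3, 1 call was left (*rhi*), and without replicates 1 and 3 together, an alternative chosen after their levels were seen, 0 were left. The count was 21 without *Cbp20/Fsn* replicate 2, 4 without Control KK replicate 2 and 5 without Control KK replicate 3. Over the 6 fits that left out 1 library, *rhi* lost its call in 0, *aub*, *spn-E* and *tor* in 1, *piwi*, *AGO3*, *krimp*, *cad*, *gnu* and *mtrm* in 3, *plu* in 4 and *bcd* and *swa* in 5.

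The PIWI genes came first. *aub* encodes the cytoplasmic PIWI protein that slices transposon RNA in the nuage. It stood at 3.61, 3.09 and 5.42 CPM in *Cbp20/Fsn* replicates 1 to 3, against 1.93, 1.65 and 1.27 CPM in *Cbp20* and 1.97, 1.23 and 1.91 CPM in Control KK. Every *Cbp20/Fsn* library was above all of the *Cbp20* and Control KK libraries, with a log2 fold change over Control KK of 1.24 (± 0.225 SE, FDR = 0.000823). In the remaining groups *aub* was at 3.66, 2.6 and 2.85 CPM in *Cbp20/dlg1*, 2.57, 2.8 and 2.34 in *dlg1*, 1.82, 1.94 and 2.28 in *Fsn* and 2.48, 3.21 and 2.58 in Control GD. Without replicate 3 its log2 fold change was 0.97, just below the threshold, and against Control GD, whose *aub* level was higher than that of Control KK, it was 0.55.

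*piwi*, the nuclear member that silences transposons at their genes, was at 2.9, 0.751 and 6.37 CPM in *Cbp20/Fsn*, against 0.481, 1.23 and 0.784 CPM in *Cbp20* and 1.06, 0.593 and 0.934 CPM in Control KK. Replicate 2 lay within the range of both references. The log2 fold change over Control KK was 1.94 (± 0.535 SE, FDR = 0.0177), and 1.10 without replicate 3. *piwi* lost its call without *Cbp20/Fsn* replicate 3 (1.10, FDR = 0.185), Control KK replicate 2 (1.74, FDR = 0.08) and Control KK replicate 3 (2.01, FDR = 0.0534). Levels of *piwi* elsewhere were 0.588, 0.356 and 0.851 CPM in *Cbp20/dlg1*, 0.952, 1.07 and 1.7 in *dlg1*, 0.5, 1.02 and 0.334 in *Fsn* and 1.26, 1.42 and 1.68 in Control GD. *AGO3*, whose protein pairs with Aubergine in the ping-pong cycle, was at 5.58, 1.63 and 11.3 CPM in *Cbp20/Fsn*, against 1.59, 1.09 and 1.09 CPM in Control KK. In *Cbp20* libraries it was at 0.7, 4.08 and 0.49 CPM, where replicate 2 alone was high. The log2 fold change over Control KK was 2.30 (± 0.603 SE, FDR = 0.0132) and 1.54 without replicate 3. *AGO3* lost its call without *Cbp20/Fsn* replicate 3 (1.54, FDR = 0.119), Control KK replicate 2 (2.21, FDR = 0.0549) and Control KK replicate 3 (2.20, FDR = 0.0563). Other groups had *AGO3* at 3.66, 2.14 and 2.6 CPM in *Cbp20/dlg1*, 1.57, 1.4 and 2.05 in *dlg1*, 1.28, 1.12 and 1.5 in *Fsn* and 2.12, 2.46 and 2.28 in Control GD.

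Among nuage and cluster genes, *spn-E* (a helicase needed to make piRNAs) was at 7.99, 3.84 and 11.7 CPM in *Cbp20/Fsn*, against 4.03, 3.09 and 3.28 CPM in *Cbp20* and 3.32, 3.6 and 2.88 CPM in Control KK. It was at 4.2, 4.73 and 4.31 CPM in *Cbp20/dlg1*, 5, 4.54 and 5.49 in *dlg1*, 3.14, 4.37 and 4.9 in *Fsn* and 4.91, 5.7 and 6.25 in Control GD. The groups did not overlap between *Cbp20/Fsn* and Control KK, although replicate 2 exceeded the highest Control KK library by little, and the log2 fold change over Control KK was 1.27 (± 0.265 SE, FDR = 0.00273). *spn-E* fell under the fold-change threshold without *Cbp20/Fsn* replicate 3 (0.87, FDR = 0.0241). *krimp* encodes a Tudor protein that holds Aubergine and AGO3 together. Its level was 1.97, 0.221 and 7.63 CPM in *Cbp20/Fsn*, against 0.131, 0.48 and 0.392 CPM in *Cbp20* and 0.193, 0.274 and 0.584 CPM in Control KK. Replicate 2 was at control level, and the log2 fold change over Control KK of 3.16 (± 0.81 SE, FDR = 0.0114) was 1.63 without replicate 3. *krimp* lost its call without *Cbp20/Fsn* replicate 3 (1.63, FDR = 0.171), Control KK replicate 1 (2.89, FDR = 0.0592) and Control KK replicate 2 (3.01, FDR = 0.0519). Further *krimp* levels were 0.462, 0.407 and 0.801 CPM in *Cbp20/dlg1*, 0.333, 0.448 and 0.698 in *dlg1*, 0.178, 0.194 and 0.334 in *Fsn* and 0.18, 0.783 and 1.08 in Control GD.

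*rhi* encodes the HP1-like protein that marks piRNA clusters. It was at 1.41, 0.574 and 2.3 CPM in *Cbp20/Fsn*, against 0.0963, 0.228 and 0.195 CPM in Control KK, with all *Cbp20/Fsn* libraries above all controls and a log2 fold change of 2.99 (± 0.595 SE, FDR = 0.00183). The call held when any single library of either group was left out, although the Control KK libraries held only 2, 5 and 5 counts. In *Cbp20* libraries *rhi* was at 0.219, 0.892 and 0.539 CPM, in *Cbp20/dlg1* at 0.882, 0.458 and 0.401, in *dlg1* at 0.333, 0.168 and 0.299, in *Fsn* at 0.321, 0.291 and 0.39 and in Control GD at 0.0902, 0.373 and 0.524. The gene overlaps *CG10936* on the same strand, so its counts are uncertain. Its partner *del* averaged 9 ± 2.7 CPM in *Cbp20/Fsn* and 5.95 ± 0.691 CPM in Control KK (SD, n = 3 each), a log2 fold change of 0.59 (± 0.175 SE, FDR = 0.0264) that is below the fold-change threshold. The helicase gene *armi*, which overlaps *CG46463* on the same strand, averaged 12.6 ± 3.15 CPM and 8.79 ± 0.781 CPM in the same groups, a log2 fold change of 0.51 (± 0.154 SE, FDR = 0.0288). No member of the pathway passed the thresholds among *tej* and *qin*, whose log2 fold changes were 0.68 (FDR = 0.13) and 0.47 (FDR = 0.1).

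**Figure D2:**
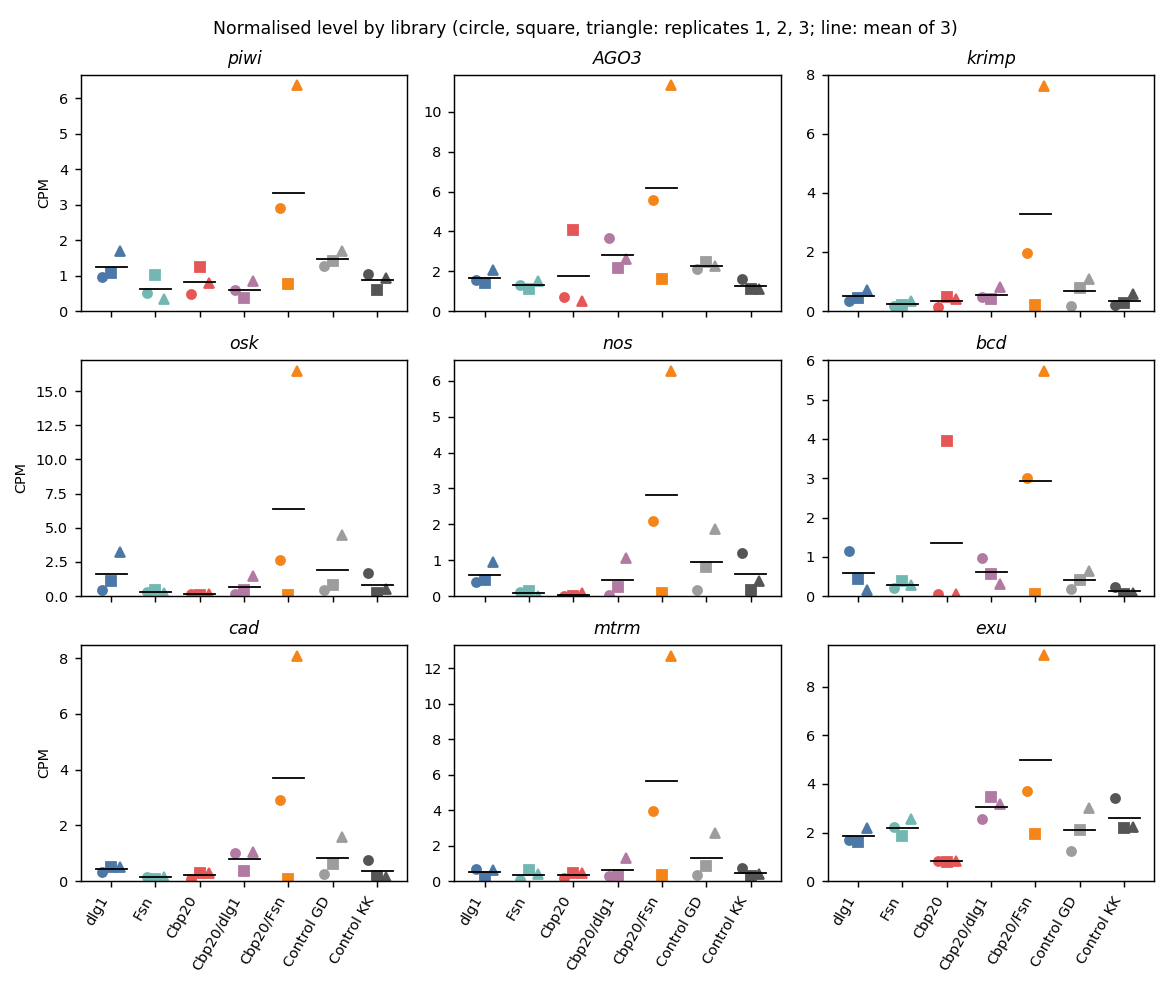
Levels (CPM, vertical axis from 0) of 9 genes in the 21 libraries, by group (horizontal axis, knockdowns left of the controls), with circles, squares and triangles for replicates 1, 2 and 3 and a line at the mean of 3. In *Cbp20/Fsn*, the triangle and the circle are high and the square lies within or below the range of the 6 control libraries. In *Cbp20*, the square is high for *bcd* and *AGO3* and not for *osk* or *nos*.

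Of the 8 genes of oocyte patterning 4 were called. *bcd*, the anterior morphogen, was at 3.01, 0.0442 and 5.73 CPM in *Cbp20/Fsn*, against 0.241, 0.0456 and 0.0778 CPM in Control KK. Those 8 counts in Control KK against 209 in *Cbp20/Fsn* give a ratio of 24.9 (95% exact interval 12.4 to 58.5 for counting error), and the log2 fold change was 4.57 (± 1.39 SE, FDR = 0.0299). *bcd* kept its call without *Cbp20/Fsn* replicate 2 alone of the single libraries, and lost it without *Cbp20/Fsn* replicate 1 (4.57, FDR = 0.0561), *Cbp20/Fsn* replicate 3 (3.67, FDR = 0.137), Control KK replicate 1 (5.42, FDR = 0.0709), Control KK replicate 2 (4.21, FDR = 0.104) and Control KK replicate 3 (4.32, FDR = 0.101). In *Cbp20* it was at 0.0438, 3.94 and 0.049 CPM, with replicate 2 alone high. It was at 0.966, 0.56 and 0.3 CPM in *Cbp20/dlg1*, 1.14, 0.448 and 0.15 in *dlg1*, 0.214, 0.388 and 0.278 in *Fsn* and 0.18, 0.41 and 0.636 in Control GD.

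*swa*, needed to localise *bcd* RNA, was at 5.13, 0.265 and 11.1 CPM in *Cbp20/Fsn*, against 0.175, 2.85 and 0.343 CPM in *Cbp20* and 1.01, 0.502 and 0.545 CPM in Control KK. It was at 0.672, 0.356 and 1.45 CPM in *Cbp20/dlg1*, 0.571, 0.897 and 1.15 in *dlg1*, 0.393, 0.728 and 0.167 in *Fsn* and 0.225, 0.671 and 2.43 in Control GD. Replicate 2 of *Cbp20/Fsn* was below all Control KK libraries, and the log2 fold change over Control KK was 3.01 (± 0.978 SE, FDR = 0.0412). *swa* likewise lost its call without *Cbp20/Fsn* replicate 1 (3.07, FDR = 0.0727), *Cbp20/Fsn* replicate 3 (2.0, FDR = 0.242), Control KK replicate 1 (3.38, FDR = 0.0897), Control KK replicate 2 (2.83, FDR = 0.131) and Control KK replicate 3 (2.86, FDR = 0.126). *tor*, the receptor tyrosine kinase of the embryo's ends, was at 2.12, 0.265 and 6.41 CPM in *Cbp20/Fsn*, against 0.394, 2.2 and 0.196 CPM in *Cbp20* and 0.0963, 0.182 and 0.156 CPM in Control KK. The other values of *tor* were 0.966, 0.204 and 0.701 CPM in *Cbp20/dlg1*, 1.19, 0.448 and 0.898 in *dlg1*, 0.25, 0.437 and 0.668 in *Fsn* and 0.316, 0.298 and 0.711 in Control GD. All of its *Cbp20/Fsn* libraries exceeded those of Control KK, with a log2 fold change of 4.27 (± 1.01 SE, FDR = 0.00639). Its Control KK libraries held only 2, 4 and 4 counts. *tor* lost its call without *Cbp20/Fsn* replicate 3 (3.01, FDR = 0.0629). *cad*, a homeodomain factor of posterior patterning, was at 2.9, 0.0884 and 8.08 CPM in *Cbp20/Fsn*, against 0.0875, 0.309 and 0.294 CPM in *Cbp20* and 0.77, 0.182 and 0.156 CPM in Control KK. Its remaining levels were 1.01, 0.356 and 1.05 CPM in *Cbp20/dlg1*, 0.333, 0.504 and 0.499 in *dlg1*, 0.143, 0.097 and 0.167 in *Fsn* and 0.271, 0.634 and 1.57 in Control GD. Replicate 2 was under every control, and the log2 fold change over Control KK was 3.34 (± 0.895 SE, FDR = 0.0149). *cad* lost its call without *Cbp20/Fsn* replicate 3 (2.08, FDR = 0.151), Control KK replicate 2 (3.03, FDR = 0.0691) and Control KK replicate 3 (2.95, FDR = 0.0726).

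The genes of egg activation and meiosis followed the same libraries. *gnu*, an activator of the PNG kinase, was at 3.27, 0.221 and 7.22 CPM in *Cbp20/Fsn*, against 0.306, 0.172 and 0.196 CPM in *Cbp20* and 0.674, 0.41 and 0.311 CPM in Control KK. For *gnu* the log2 fold change over Control KK was 2.95 (± 0.805 SE, FDR = 0.0169). *gnu* lost its call without *Cbp20/Fsn* replicate 3 (1.94, FDR = 0.145), Control KK replicate 2 (2.87, FDR = 0.0641) and Control KK replicate 3 (2.71, FDR = 0.0743). Elsewhere *gnu* was at 0.336, 0.204 and 1.4 CPM in *Cbp20/dlg1*, 0.333, 0.448 and 0.948 in *dlg1*, 0.0714, 0.34 and 0.167 in *Fsn* and 0.451, 0.783 and 1.46 in Control GD. *plu*, another subunit, had 51 counts in *Cbp20/Fsn* against 1 count in Control KK, and passed the test with FDR = 0.0286. The ratio of its counts was 48.7 (95% exact interval 8.35 to 1959, counting error only). Since *plu* passed the count filter only with the *Cbp20/Fsn* libraries included, its counts there decided whether it was tested. *plu* lost its call without *Cbp20/Fsn* replicate 3 (FDR = 0.204), Control KK replicate 1 (FDR = 0.0713), Control KK replicate 2 (FDR = 0.0959) and Control KK replicate 3 (FDR = 0.101). Its levels were 0.483, 0 and 1.72 CPM in *Cbp20/Fsn*, 0, 0.515 and 0 in *Cbp20*, 0.126, 0 and 0.1 in *Cbp20/dlg1*, 0, 0.0561 and 0.2 in *dlg1*, 0.107, 0.0485 and 0 in *Fsn*, 0.0451, 0.0373 and 0.0748 in Control GD and 0.0481, 0 and 0 in Control KK. *mtrm*, an inhibitor of Polo kinase in meiosis, was at 3.94, 0.354 and 12.7 CPM in *Cbp20/Fsn*, against 0.175, 0.446 and 0.49 CPM in *Cbp20* and 0.722, 0.319 and 0.428 CPM in Control KK. The log2 fold change of *mtrm* over Control KK was 3.52 (± 0.916 SE, FDR = 0.0124), and 2.15 without replicate 3. *mtrm* lost its call without *Cbp20/Fsn* replicate 3 (2.15, FDR = 0.137), Control KK replicate 2 (3.30, FDR = 0.0585) and Control KK replicate 3 (3.43, FDR = 0.0545). It was at 0.294, 0.356 and 1.3 CPM in *Cbp20/dlg1*, 0.714, 0.224 and 0.648 in *dlg1*, 0.0714, 0.631 and 0.39 in *Fsn* and 0.361, 0.858 and 2.73 in Control GD. It overlaps *Exo70* on the same strand, so its counts are uncertain.

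**Figure D3:**
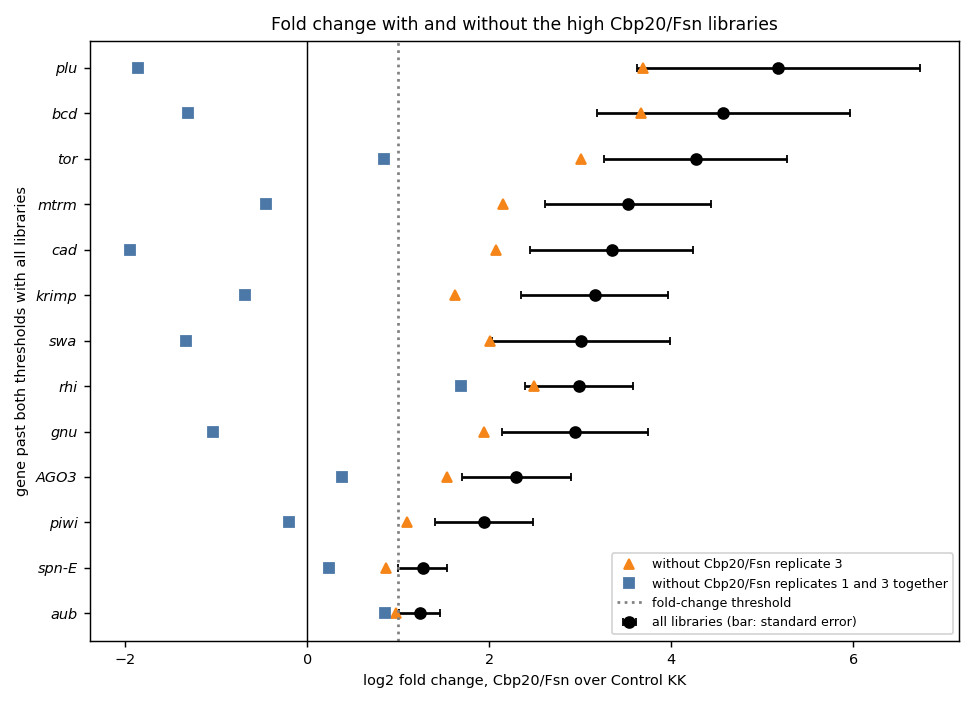
Log2 fold change of *Cbp20/Fsn* over Control KK (horizontal axis) for the 13 genes past both thresholds (vertical axis), with all libraries (black, bar for the standard error), without *Cbp20/Fsn* replicate 3 (orange) and without replicates 1 and 3 together (blue). Orange points lie left of the black points for each gene, and 8 of the blue points lie below 0.

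Of the 15 members expressed in every head library, 2 were past both thresholds in *Cbp20/Fsn* over Control KK (*aub* and *spn-E*), 5 had an FDR under 0.05 alone and 8 passed neither. All 3 *Cbp20/Fsn* libraries lay above all 3 Control KK libraries for 7 of the 15 and below them for 2. The corresponding counts were 8 and 3 in *Cbp20/dlg1* against Control KK, and 1 and 9 in Control KK against Control GD. Such separation was thus not particular to *Cbp20/Fsn*, and its share over all genes was not computed. *me31B* was at 134, 98.5 and 197 CPM in *Cbp20/Fsn*, against 91.5, 98.7 and 102 CPM in Control KK, a log2 fold change of 0.55 (± 0.145 SE, FDR = 0.0129). *smg* was at 104, 79 and 159 CPM in *Cbp20/Fsn*, against 77.4, 123 and 79.6 CPM in *Cbp20* and 74, 72.6 and 73.4 CPM in Control KK, with a log2 fold change over Control KK of 0.64 (± 0.208 SE, FDR = 0.0421). Both have an FDR under 0.05 and stay below the fold-change threshold, with replicates 1 and 3 above replicate 2. Replicate 2 lay within the Control KK range for *me31B* and above it for *smg*. *grk* averaged 26.7 ± 1.29 CPM in *Cbp20/Fsn* and 22.2 ± 0.593 CPM in Control KK (SD, n = 3 each), with a log2 fold change of 0.27 (± 0.0621 SE, FDR = 0.00555) and every *Cbp20/Fsn* library above every Control KK library. The 2 below were *stau*, at 189, 215 and 208 CPM in *Cbp20/Fsn*, against 246, 237 and 232 CPM in Control KK, and *tud*, at 373, 425 and 423 CPM in *Cbp20/Fsn*, against 451, 477 and 438 CPM in Control KK. Neither passed the test, with log2 fold changes of -0.22 (± 0.0953 SE, FDR = 0.115) for *stau* and -0.16 (± 0.14 SE, FDR = 0.478) for *tud*.

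The germ plasm genes *osk*, *nos* and *pgc* passed the thresholds against *Cbp20* knockdown alone and did not against Control KK. In the comparison with *Cbp20*, 15 of the 37 members were higher and 0 lower, beside 2.85% of all genes higher and 1.36% lower (4.21% in either direction), and the median log2 fold change over the 33 tested was 1.31, beside 0.03 over all genes. Of the 15, 14 passed the count filter without the *Cbp20/Fsn* libraries, and *png* did not. Among these 15, only *aub* and *exu* had all 3 *Cbp20/Fsn* libraries above all 3 *Cbp20* libraries. Some members that were not called separated in the same way, and the share over all genes was not computed. Without replicate 3 the count of calls was 6 (*aub*, *nos*, *pgc*, *exu*, *cad* and *gnu*). At an FDR under 0.05 with no fold-change threshold 29.2% of all genes passed, and 18 of the 33 members did. The comparison shares its *Cbp20/Fsn* libraries with the one against Control KK, so its calls are not separate evidence. Members called in both had log2 fold changes over *Cbp20* of 1.31 for *aub*, 1.97 for *piwi*, 1.74 for *AGO3*, 1.18 for *spn-E*, 3.24 for *krimp*, 1.33 for *rhi*, 3.95 for *cad*, 3.97 for *gnu* and 3.91 for *mtrm*. The call of *rhi* (FDR = 0.0498) was lost with DESeq2 (FDR = 0.0684) and with RLE normalisation (FDR = 0.052). *rhi* also lost that call without *Cbp20* replicate 1 (0.98, FDR = 0.193), *Cbp20* replicate 3 (1.32, FDR = 0.109), *Cbp20/Fsn* replicate 1 (1.36, FDR = 0.105) and *Cbp20/Fsn* replicate 3 (0.83, FDR = 0.277). *AGO3* lost it without *Cbp20* replicate 1 (1.39, FDR = 0.117), *Cbp20* replicate 3 (1.35, FDR = 0.103), *Cbp20/Fsn* replicate 1 (1.83, FDR = 0.053) and *Cbp20/Fsn* replicate 3 (0.98, FDR = 0.232). *piwi* lost it without *Cbp20* replicate 1 (1.71, FDR = 0.0528) and *Cbp20/Fsn* replicate 3 (1.12, FDR = 0.115). Leaving out a single library ended the call of *spn-E* without *Cbp20/Fsn* replicate 3 (0.79, FDR = 0.0244), *krimp* without *Cbp20/Fsn* replicate 3 (1.70, FDR = 0.0979) and *mtrm* without *Cbp20/Fsn* replicate 3 (2.54, FDR = 0.0527), while *aub*, *cad* and *gnu* lost it in 0 of the 6 fits without 1 library. *osk*, the organiser of germ plasm, was at 2.64, 0.0884 and 16.5 CPM in *Cbp20/Fsn*, against 0.131, 0.103 and 0.147 CPM in *Cbp20* and 1.68, 0.228 and 0.545 CPM in Control KK. The 438 counts of *Cbp20/Fsn* against 9 counts of *Cbp20* give a ratio of 49.2 (95% exact interval 25.7 to 108, counting error only). The log2 fold change was 5.61 (± 1.41 SE, FDR = 0.00635) over *Cbp20* (no call without *Cbp20/Fsn* replicate 3 (3.43, FDR = 0.077)) and 2.98 (FDR = 0.0686) over Control KK. It was at 0.168, 0.458 and 1.45 CPM in *Cbp20/dlg1*, 0.476, 1.12 and 3.24 in *dlg1*, 0.321, 0.437 and 0.223 in *Fsn* and 0.451, 0.82 and 4.49 in Control GD, where replicate 3 was high.

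*nos*, the translational repressor of posterior patterning, was at 2.08, 0.0884 and 6.28 CPM in *Cbp20/Fsn*, against 0, 0 and 0.098 CPM in *Cbp20* and 1.2, 0.182 and 0.428 CPM in Control KK. With 197 counts against 2, the ratio to *Cbp20* was 99.5 (95% exact interval 27.2 to 827, counting error only), and FDR = 0.00373. It was at 0.042, 0.255 and 1.05 CPM in *Cbp20/dlg1*, 0.381, 0.448 and 0.948 in *dlg1*, 0.107, 0.146 and 0 in *Fsn* and 0.18, 0.82 and 1.87 in Control GD. *pgc*, which keeps transcription silent in primordial germ cells, was at 2.53, 0.221 and 5.46 CPM in *Cbp20/Fsn*, against 0.263, 0.0686 and 0.245 CPM in *Cbp20* and 0.578, 0.365 and 0.817 CPM in Control KK. The log2 fold change of *pgc* over *Cbp20* was 3.86 (± 0.923 SE, FDR = 0.00457). It was at 0.042, 0.407 and 1.05 CPM in *Cbp20/dlg1*, 0.428, 0.336 and 0.2 in *dlg1*, 0.178, 0.194 and 0.613 in *Fsn* and 0.271, 0.932 and 1.27 in Control GD. *otu*, a deubiquitinase of female germ cells, was at 4.65, 0.354 and 12 CPM in *Cbp20/Fsn*, against 0.35, 0.789 and 0.49 CPM in *Cbp20* and 1.83, 0.958 and 0.856 CPM in Control KK, a log2 fold change over *Cbp20* of 3.33 (± 0.842 SE, FDR = 0.00658). *otu* lost its call without *Cbp20/Fsn* replicate 3 (2.18, FDR = 0.0645). Its values were 0.378, 0.713 and 1.75 CPM in *Cbp20/dlg1*, 1.19, 0.673 and 2 in *dlg1*, 0.714, 0.388 and 0.613 in *Fsn* and 0.541, 1.79 and 3.44 in Control GD. *png*, the catalytic subunit of the PNG kinase, was at 0.558, 0.133 and 2.26 CPM in *Cbp20/Fsn*, against 0.35, 0.0686 and 0.294 CPM in *Cbp20* and 0.433, 0.0912 and 0.234 CPM in Control KK, with a log2 fold change over *Cbp20* of 2.07 (± 0.723 SE, FDR = 0.0377) that was 0.64 and not past the thresholds without replicate 3. The call was also lost when any single *Cbp20* library was left out. *png* passed the count filter only with the *Cbp20/Fsn* libraries included, so its counts there decided whether it was tested. The other groups held *png* at 0.21, 0.204 and 0.2 CPM in *Cbp20/dlg1*, 0.19, 0.112 and 0.349 in *dlg1*, 0.214, 0.437 and 0.223 in *Fsn* and 0.225, 0.298 and 0.486 in Control GD.

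*exu*, also needed to localise *bcd* RNA, was the one member to pass both thresholds in *Cbp20* knockdown itself. It was at 0.832, 0.789 and 0.833 CPM in *Cbp20*, against 3.42, 2.19 and 2.22 CPM in Control KK, and fell by 1.66 on the log2 scale (± 0.449 SE, FDR = 0.0111) with no overlap between the groups. The call was lost without Control KK replicate 1, where the log2 fold change was -1.43. In *Cbp20/dlg1* it was at 2.56, 3.46 and 3.16 CPM and rose over *Cbp20* with a log2 fold change of 1.90 (± 0.447 SE, FDR = 0.00333), and in *Cbp20/Fsn* it was at 3.72, 1.94 and 9.3 CPM, with a log2 fold change of 2.60 (± 0.435 SE, FDR = 0.000209) over *Cbp20*. Levels of *exu* were 1.71, 1.63 and 2.19 CPM in *dlg1*, 2.21, 1.84 and 2.56 in *Fsn* and 1.26, 2.09 and 2.99 in Control GD. Against Control KK, 3.24% of all genes passed in *Cbp20* in either direction, and 1 of the 37 members did. With no fold-change threshold the share was 21.6% of all genes, and 2 members passed. Against *Cbp20*, 4.35% of all genes passed in *Cbp20/dlg1*, and 1 member did, while 3 members passed at an FDR under 0.05 alone, beside 32.2% of all genes.

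*Cbp20* replicate 2 had its own profile. It held *bcd* at 3.94 CPM, *AGO3* at 4.08 CPM, *swa* at 2.85 CPM, *tor* at 2.20 CPM and *smg* at 123 CPM, while *osk* at 0.103 CPM, *nos* at 0 CPM and *pgc* at 0.0686 CPM were as low as in the other *Cbp20* libraries. In *Cbp20/Fsn* replicate 3 all 8 of these genes were high. In the *Cbp20* comparison with Control KK, *qin* (a Tudor protein that keeps Aubergine from pairing with itself, whose gene overlaps *Tssk* on the same strand so that its counts are uncertain) averaged 4.89 ± 1.05 CPM in *Cbp20* and 2.72 ± 0.232 CPM in Control KK (SD, n = 3 each), with an FDR under 0.05 and a log2 fold change of 0.85 (± 0.188 SE, FDR = 0.00248), below the fold threshold. The groups did not overlap.

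**Figure D4:**
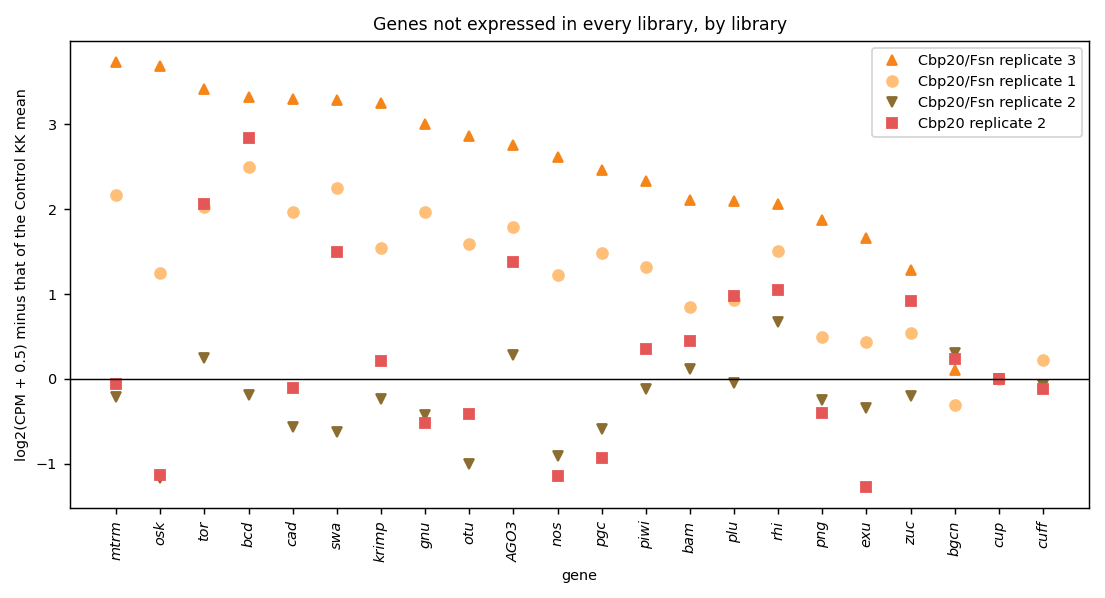
Difference in log2(CPM + 0.5) from the Control KK mean (vertical axis) of the 22 genes not expressed in every library (horizontal axis, ordered by *Cbp20/Fsn* replicate 3), in *Cbp20/Fsn* replicates 3, 1 and 2 and in *Cbp20* replicate 2. *Cbp20* replicate 2 lies near *Cbp20/Fsn* replicate 1 for *bcd* and *tor*, and below 0 for *osk*, *nos* and *pgc*.

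In the individual knockdowns of *dlg1* and *Fsn*, no member passed both thresholds. Of all genes, 1.96% passed in *dlg1* and 2.41% in *Fsn*, in either direction. In *dlg1* against Control GD, 0 of the 33 members tested had an unadjusted p under 0.05 by edgeR and 0 were called by DESeq2 (9.26% of all genes had an FDR under 0.05), and the median log2 fold change was -0.11, beside 0.01 over all genes. In *Fsn* against Control GD, 9 of 33 had an unadjusted p under 0.05 by edgeR, beside at least 38.2% of all genes. DESeq2 called 3 members as lower, and the median was -0.38, beside 0.03 over all genes. In the *Fsn* comparison 4 members had an FDR under 0.05 below the fold-change threshold, beside 38.2% of all genes at that FDR. Among them *orb* averaged 36.4 ± 10.2 CPM in *Fsn* and 57.4 ± 0.254 CPM in Control GD (SD, n = 3 each), with all *Fsn* libraries lower and a log2 fold change of -0.66 (± 0.157 SE, FDR = 0.00387). *stau* averaged 182 ± 31.7 CPM and 235 ± 9.33 CPM in the same groups and also did not overlap. In *Fsn* replicate 1 *orb*, *stau* and *tud* were the lowest of the 21 libraries, at 26.2, 147 and 268 CPM. Neuronal markers fell in that comparison too: 4 of 5 had an FDR under 0.05 below the fold-change threshold, and their sum was 2869 to 4119 CPM in *Fsn*, against 4546 to 4882 CPM in Control GD, and was lowest in *Fsn* replicate 1. Their part in the result was not tested.

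The effect of adding *Fsn* knockdown to *Cbp20* knockdown was set against its effect in the GD background. These settings differ in *Cbp20* knockdown as well as in background, which cannot be told apart. The log2 difference passed an FDR of 0.05 with a size over 1 for 12 of the 33 members tested, beside 2.6% of all genes. For *dlg1* knockdown it passed for 2 members, beside 4.41% of all genes.

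In *Cbp20/dlg1* against Control KK, 0 of the 37 members passed both thresholds, 5 of the 33 tested had an unadjusted p under 0.05 by edgeR and 0 were called by DESeq2. Of all genes 2.03% passed, in either direction, and 13.1% had an FDR under 0.05, as 2 members did. At least 13.1% of all genes therefore had an unadjusted p under 0.05. *aub* averaged 3.04 ± 0.552 CPM in *Cbp20/dlg1* and 1.7 ± 0.411 CPM in Control KK (SD, n = 3 each), with every *Cbp20/dlg1* library higher and a log2 fold change of 0.83 (± 0.23 SE, FDR = 0.0199) that is below the threshold of 1. Against *Cbp20* its log2 fold change was 0.91 (± 0.23 SE, FDR = 0.00546).

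Control KK was also compared with Control GD. Of the 33 members tested, 28 were lower in Control KK than in Control GD and the median log2 fold change was -0.55, beside -0.00095 over all genes, but 0 passed both thresholds, where 3.36% of all genes did in either direction. In this comparison 7 members had an unadjusted p under 0.05 by edgeR, beside at least 20.9% of all genes, and 0 were called by DESeq2. *spn-E* averaged 3.27 ± 0.364 CPM in Control KK and 5.62 ± 0.67 CPM in Control GD (SD, n = 3 each), a log2 fold change of -0.79 (± 0.268 SE, FDR = 0.0433). *aub* was at 1.97, 1.23 and 1.91 CPM in Control KK, against 2.48, 3.21 and 2.58 CPM in Control GD, with a log2 fold change of -0.69 (± 0.229 SE, FDR = 0.0373). *qin* and *gcl* had an FDR under 0.05 too, beside 20.9% of all genes, with log2 fold changes of -0.55 and -0.23. The Control GD libraries did not overlap those of Control KK for any of these 4 genes. With Control GD as the reference, *Cbp20/Fsn* had 5 members higher in place of 13, of which *krimp*, *rhi*, *tor* and *plu* were among the 13.

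Further genes of the same pathways, none of them members, were counted in the same way. Of 18 other piRNA genes tested (20 with a row), 4 were higher and 0 lower in *Cbp20/Fsn* against Control KK. These were *shu*, *vret*, *squ* and *nxf2*, with log2 fold changes of 1.66, 1.48, 2.14 and 1.18. Of 30 other oogenesis and maternal genes tested (35 with a row), 6 were higher and 1 was lower. Of all genes, 2.12% were higher and 0.881% lower in that comparison. The median log2 fold change was 0.34 over the piRNA genes and 0.33 over the oogenesis genes, beside 0.0025 over all genes tested. The higher oogenesis genes were *wisp*, *alphaTub67C*, *dhd*, *BigH1*, *CycB3* and *trk*, and the lower one was *mei-218*. *wisp*, the poly(A) polymerase of egg activation, was at 12.3, 1.9 and 31.9 CPM in *Cbp20/Fsn*, against 3.37, 1.32 and 1.71 CPM in Control KK, a log2 fold change of 2.85 (FDR = 0.00689). *dhd*, a thioredoxin of the egg, was at 3.72, 0.265 and 76.9 CPM in *Cbp20/Fsn*, against 4.38, 1.09 and 1.87 CPM in Control KK (FDR = 0.0493), and replicate 3 alone lay above the Control KK libraries. *BigH1*, the linker histone of the early embryo, was at 3.64, 0.0884 and 9.84 CPM in *Cbp20/Fsn*, against 0.674, 0.0912 and 0.272 CPM in Control KK, with replicate 2 at control level. Against *Cbp20* alone, 3 of the 18 piRNA genes and 7 of the 30 oogenesis genes were higher in *Cbp20/Fsn*, beside 2.85% of all genes. In *Cbp20/dlg1* against Control KK, 1 oogenesis gene was higher (*trk*) and 1 lower (*fs(1)ph*), beside 2.03% of all genes in either direction.

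The 10 genes outside the list whose level, as log2(CPM + 0.5), followed the mean of the near-zero members most closely over the 21 libraries were *wisp*, *BigH1*, *CG11674*, *Marf1*, *CG3679*, *gwl*, *Kots*, *lok*, *CG6927* and *zpg*, with Pearson correlations of 0.98 to 0.92. The correlations share the high levels of *Cbp20/Fsn* replicates 1 and 3 and are given as a description. *zpg*, which encodes a germline gap junction protein, was at 2.42, 0 and 4.06 CPM in *Cbp20/Fsn*, against 0.0389 to 0.337 CPM in Control KK.

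Markers of other tissues were measured in the same libraries. In *Cbp20/Fsn*, the 4 markers of female head fat body summed to 33427, 31262 and 29238 CPM, against 40577, 42937 and 48485 CPM in Control KK. All 4 had an FDR under 0.05 below the fold-change threshold, beside 17.1% of all genes at that FDR. The 15 proliferation genes summed to 227, 41.8 and 378 CPM in *Cbp20/Fsn*, against 67.2, 62.2 and 60.8 CPM in Control KK. Of the 15, 5 were higher and 0 lower by both thresholds, beside 2.12% of all genes higher and 0.881% lower. Their median log2 fold change was 1.47, beside 0.0025 over all genes tested. *CycB*, a mitotic cyclin that is also loaded into eggs, was at 65.9, 1.1 and 139 CPM in *Cbp20/Fsn*, against 0.832, 45.7 and 10.2 CPM in *Cbp20* and 7.08, 4.97 and 4.87 CPM in Control KK. In *Cbp20* the list summed to 36.2, 120 and 97.3 CPM. Replicates 1 and 3 of *Cbp20/Fsn* thus had the highest sums of both the proliferation and the germline genes, while *Cbp20* replicate 3 was above Control KK in the proliferation sum (97.3 CPM) and not in the germline sum (3.58 CPM). The part of proliferation genes in the result was not tested. The 18 eggshell genes of ovarian follicle cells summed to 5.35, 5.61 and 7.18 CPM in *Cbp20/Fsn*, against 22.9, 7.39 and 12.5 CPM in Control KK, with 0 of the 6 tested past both thresholds by edgeR and 1 at an unadjusted p under 0.05. They were highest in *dlg1* replicate 3 at 73.5 CPM, of which *Cp15* was 58.2 CPM, while the near-zero germline members summed to 7.73 CPM there. The zygotic genes *nullo* and *bnk*, transcribed when the embryo forms cells, summed to 0.446, 0 and 4.56 CPM in *Cbp20/Fsn*, against 0, 0.228 and 0.156 CPM in Control KK. They also reached 4.24 CPM in *Cbp20/dlg1* replicate 1. These were chosen after their values were seen, from a list of 10 zygotic genes that summed to 37.2, 33.3 and 44.9 CPM in *Cbp20/Fsn*, against 31.6, 31.2 and 29.9 CPM in Control KK. Of its 6 genes tested, 0 passed both thresholds by edgeR. An FDR under 0.05 below the fold-change threshold was reached by 1, beside 17.1% of all genes at that FDR. In that list *kni* was at 14.8, 14.8 and 12.8 CPM in *Cbp20/Fsn*, against 15.2, 14.8 and 12.2 CPM in Control KK. *gt* was at 14.6, 14.9 and 14.9 CPM in *Cbp20/Fsn*, against 11.6, 10.9 and 11.4 CPM in Control KK. *slam* was at 4.5, 2.12 and 9.8 CPM in *Cbp20/Fsn*, against 3.13, 3.83 and 4.51 CPM in Control KK. The 10 midgut genes were highest in *Cbp20/dlg1* replicate 3 at 59.3 CPM and stood at 11.3, 14.9 and 10.1 CPM in *Cbp20/Fsn*, against 12, 12 and 10.9 CPM in Control KK. None of the testis genes tested (4 of 10) passed the thresholds, and 0 of the 4 had an unadjusted p under 0.05 by edgeR. Nearly all of that list's level was *bol*, at 211, 239 and 237 CPM in *Cbp20/Fsn*, against 224, 249.8 and 244 CPM in Control KK, and the other 9 genes summed to 2.12, 1.81 and 1.9 CPM in *Cbp20/Fsn*, against 2.26, 2.42 and 2.1 CPM in Control KK. The spermatheca genes summed to at most 0.289 CPM in any library. The part of these markers in the germline result was not tested.

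**Figure D5:**
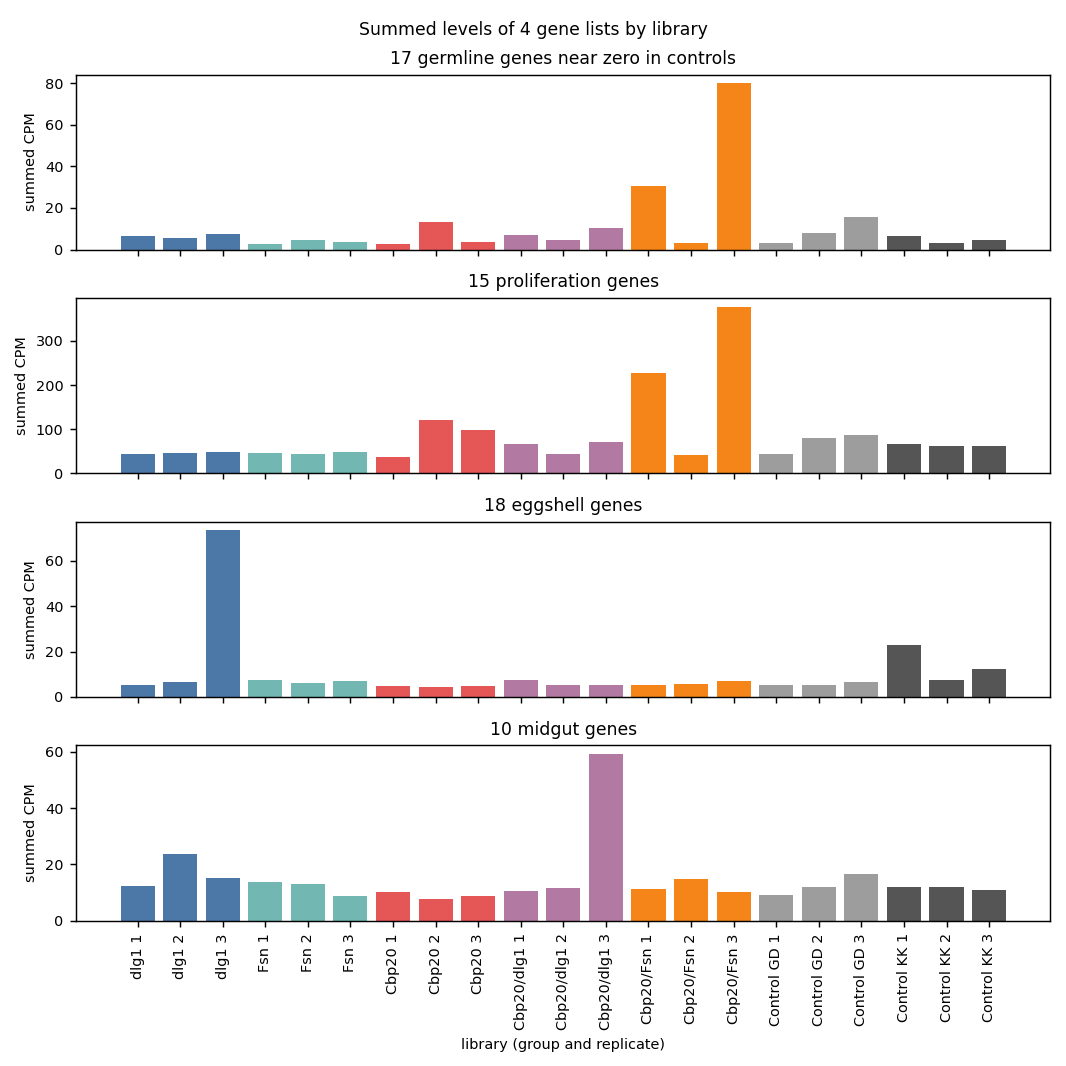
Summed level in CPM (vertical axes from 0) of the germline members near zero in controls and of 3 marker lists in the 21 libraries, coloured by group. The germline and proliferation sums are highest in *Cbp20/Fsn* replicates 3 and 1, the eggshell sum in *dlg1* replicate 3 and the midgut sum in *Cbp20/dlg1* replicate 3.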

How the data were processed

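Heads of adult females from 7 groups were sequenced as stranded mRNA libraries, 3 per group. The authors trimmed reads with Trimmomatic 0.36, aligned them with TopHat2 2.1.1 and counted reads per gene with HTSeq 0.6.1, and the deposited values are raw counts per gene for each sequencing run, whose strand setting is not given in the sources used here. Runs of a library were summed (3 runs for 17 libraries, 2 for 4), and reads in no gene (10.2 to 14.6% per library) were left out of library sizes. The depth was 17712938 to 28759171 gene counts. Symbols were matched for 17253 of 17559 genes.

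After edgeR's filterByExpr (10558 genes) and TMM normalisation, all 21 libraries entered 1 edgeR 4.0.16 quasi-likelihood model (R 4.3.3), with 8 comparisons, called at an absolute log2 fold change over 1 and a Benjamini-Hochberg FDR under 0.05 over all genes tested. Standard errors were the absolute log2 fold change over the square root of F. The fits were tested on simulated data. Exact intervals for ratios of counts condition on the total and cover counting error only. Values in every library are given for members past the thresholds in any comparison and for the PIWI genes, other members by ranges and counts, and the 10 genes most correlated with the near-zero members are named. Alternatives were RLE normalisation, DESeq2 1.42.0, other filters, fewer groups, a replicate block, single runs, the other control and leaving out replicates. Descriptive values and figures used Python 3.11.15, pandas 2.3.3, scipy 1.17.1 and matplotlib 3.10.9. Members and lists were chosen with earlier results of these data known. Another knockdown of the experiment and the genes *vas*, *para* and *corolla* were not analysed here.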

Additional observations from a re-analysis of the deposited data

Results flagged for a closer look

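The log2 fold change of *Cbp20/Fsn* over *Cbp20* minus that of *Fsn* over Control GD was tested. These settings differ in *Cbp20* knockdown as well as in background, which cannot be told apart. The difference passed an FDR of 0.05 with a size over 1 for 12 of the 33 members tested (edgeR interaction contrast), beside 2.6% of all genes. It was 1.77 for *aub*, 3.20 for *piwi*, 1.64 for *spn-E*, 4.83 for *krimp*, 9.76 for *nos*, 8.16 for *osk*, 5.29 for *pgc*, 5.07 for *otu*, 2.55 for *exu*, 6.53 for *cad*, 6.25 for *gnu* and 5.86 for *mtrm*. For *nos* and *osk* the *Cbp20* libraries hold 2 and 9 counts, so the fitted size depends on few counts. Of the 12, 7 were left without *Cbp20/Fsn* replicate 3, 7 without Control GD replicate 3 and 1 without *Cbp20/Fsn* replicates 1 and 3 together, while 11 or 12 were left without any other single library, and 0 changed sign.

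For *dlg1* knockdown the same difference passed for *aub* (1.01) and *exu* (2.1), which is 2 of 33 members beside 4.41% of all genes, a share near that of all genes. Leaving out single libraries left 1 or 2 of these past the thresholds, with 0 reversed.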

How the results depend on the processing

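Over the 30 log2 fold changes of members past the thresholds, 337 of 442 alternative values kept their direction and call, 88 lost the call and 17 reversed. The reversals all came without *Cbp20/Fsn* replicates 1 and 3 together, chosen after the data were seen: over Control KK, *piwi* -0.20, *krimp* -0.69, *bcd* -1.31, *swa* -1.34, *cad* -1.95, *gnu* -1.03, *plu* -1.87 and *mtrm* -0.45, and over *Cbp20*, *piwi* -0.17, *AGO3* -0.17, *krimp* -0.61, *osk* -0.47, *otu* -0.64, *cad* -1.34, *gnu* -0.0063, *png* -0.75 and *mtrm* -0.069. The count of members called was then 0 in both comparisons. With the groups compared alone in the model, it was 8 (over Control KK) and 6 (over *Cbp20*) for *Cbp20/Fsn*, 1 for *Fsn* and 1 for *Cbp20/dlg1* over Control KK. DESeq2 called 3 for *Fsn* and 3 for *Cbp20*. With no fold-change threshold the counts were 4 for *Fsn*, 2 for *Cbp20*, 2 for *Cbp20/dlg1* over Control KK, 3 over *Cbp20* and 4 for Control KK over Control GD. With the control of the other background they were 2 for *Cbp20* and 5 for *Cbp20/Fsn*, and with the first sequencing run alone 2 for *Cbp20/dlg1* over *Cbp20*. The cause of these changes was not tested.

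Leaving out single libraries gave 1 to 21 calls for *Cbp20/Fsn* over Control KK (1 without *Cbp20/Fsn* replicate 3, 21 without replicate 2, 4 and 5 without Control KK replicates 2 and 3) and 6 to 19 over *Cbp20* (6 without *Cbp20/Fsn* replicate 3). It gave 0 to 4 for *Cbp20* (4 without *Cbp20* replicate 1, 0 without Control KK replicate 1), 0 to 1 for *Fsn* (1 without *Fsn* replicate 2 or Control GD replicate 1) and 1 to 2 for *Cbp20/dlg1* over *Cbp20* (2 without *Cbp20* replicate 1 or 2 or *Cbp20/dlg1* replicate 2). It gave 0 to 0 for *dlg1*, for *Cbp20/dlg1* over Control KK and for Control KK over Control GD. Same-numbered samples did not deviate together (correlations -0.283 to 0.107), and the main model did not pair them. Whether they were handled together cannot be told from these correlations. With a replicate block the counts were 12 and 13 for *Cbp20/Fsn* over Control KK and over *Cbp20*, and 1 for *Fsn*. At a class limit of 0.5 CPM, 10 members were near zero in controls and 11 between, and at 2 CPM, 21 and 3. Genes under 0.104 to 0.169 CPM rest on fewer than 3 counts.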

Other observations

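Control GD replicate 3 held the highest *osk* (4.49 CPM) and *dhd* (14.8 CPM) of the control libraries. Its roX genes, which are male markers, summed to 50.0 CPM, against 5.03 to 20.9 CPM in the other 20 libraries. The 20.9 CPM was in *Cbp20/Fsn* replicate 1, while replicates 2 and 3 of that group held 6.85 and 7.81 CPM. The part of the roX genes in the germline result was not tested. The values of Control GD replicate 3 are those of 1 library.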
